A study of Homo sapiens with 4 samples.

Results

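The replication-dependent histone genes of the HIST1, HIST2, HIST3 and HIST4 clusters were followed in the human embryonic stem cell line H1 through 3 sorted populations of its path to blood. Members were all rows whose symbol begins with HIST1H, HIST2H, HIST3H or HIST4H, which gave 69 of 17630 genes. The libraries came from undifferentiated cells (hESC), APLNR+ cells of day 2 (MES), CD31+CD34+ cells of day 4 (HEP) and CD31+CD43+ cells of day 7 (HPC). All were of the single established line H1, and flow cytometry was used to sort the 3 populations that had left the undifferentiated state. MES cells had received activin A at 40 ng/ml and BMP4 at 50 ng/ml for 2 days. HEP cells had then received VEGF at 40 ng/ml and bFGF at 50 ng/ml for a further 2 days, and HPC cells had the same VEGF and bFGF for a last 3 days, now together with SB-431542, which blocks the type I receptors of the activin, NODAL and TGF-beta family. There was 1 library per population: values carry no replicate error, and differences are described by size without a test.

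Replication-dependent histones package newly made DNA, and their genes are transcribed mainly in S phase, when the coactivator NPAT gathers at the clusters. In animals their mRNAs end in a conserved stem-loop in place of a poly(A) tail, and the stem-loop binding protein SLBP, with the U7 small nuclear ribonucleoprotein, directs their processing. The core histones H2A, H2B, H3 and H4 form the nucleosome, and the linker histone H1 binds the DNA at its edge. Replication-independent variants such as H2A.Z and H3.3 come from other genes with polyadenylated mRNAs. Because most of these mRNAs lack a poly(A) tail, the way RNA was selected sets how many of them a library holds. Libraries were made from 2 ug of total RNA with the TruSeq RNA kit, and whether poly(A) RNA was selected is not given in the sources used here.

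The 31 members for which a stem-loop was found in GENCODE 29 transcripts carried 6 distinct forms of its 16-base core. The search pattern fixed the letters at most positions of the core, so forms could differ only at the others. The sequences below show the form shared by most members and those that depart from it, 5′ to 3′ in DNA letters, with the core in capitals.
HIST2H2BE: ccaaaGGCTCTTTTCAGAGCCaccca
HIST4H4: caaaaGGCCCTTTTCAGGGCCcccaa
HIST1H3G: aaaaaGGCTCTTTTAAGAGCCgccta
HIST2H4A: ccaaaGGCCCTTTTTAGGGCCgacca
HIST1H3E: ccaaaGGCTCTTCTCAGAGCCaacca
HIST1H2AG: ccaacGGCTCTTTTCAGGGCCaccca
The HIST2H2BE form was found in 17 members and the HIST4H4 form in 5, all of class H4. The HIST1H3G form was found in 4 members and the HIST2H4A form in 3 H4 members. HIST1H3E and HIST1H2AG each had a form of their own. Of 31 members with at least 60 annotated bases after the stop codon, 30 held a stem-loop, and 34 members had no annotated 3′ UTR to search.

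The promoters below belong to members that differed by the rule of size given further on, picked with their values known: H2A and H2B pairs that share a promoter region, the low-level members HIST1H1A, HIST1H2BB and HIST1H3C, and the H1 genes HIST1H1C and HIST1H1E. They are RefSeq sequence on GRCh38.p14, 5′ to 3′ on the strand given, and capitals mark the letters CCAAT, and likewise TATAAA, as well as the octamer ATTTGCAT, on either strand. Those on chromosome 6 are the 120 bases just before the start. The octamer is known as the OCT1 element of histone H2B promoters, CCAAT as the element of the factor NF-Y, and TATAAA as a TATA box.
HIST3H2A and HIST3H2BB, chr1:228457874-228458102, plus strand, the whole stretch between both starts: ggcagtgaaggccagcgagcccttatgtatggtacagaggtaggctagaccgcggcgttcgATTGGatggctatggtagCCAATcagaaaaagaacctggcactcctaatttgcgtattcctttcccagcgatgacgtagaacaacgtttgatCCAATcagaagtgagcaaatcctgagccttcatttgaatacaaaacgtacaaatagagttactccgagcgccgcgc
HIST2H2BE and HIST2H2AC, chr1:149886683-149886917, plus strand, the whole stretch between both starts: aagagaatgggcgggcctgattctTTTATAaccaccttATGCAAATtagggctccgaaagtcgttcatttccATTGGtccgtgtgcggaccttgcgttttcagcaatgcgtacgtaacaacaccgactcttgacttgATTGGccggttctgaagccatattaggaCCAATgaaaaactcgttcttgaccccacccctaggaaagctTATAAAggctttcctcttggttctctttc
HIST1H1A, chr6:26017788-26017907, minus strand: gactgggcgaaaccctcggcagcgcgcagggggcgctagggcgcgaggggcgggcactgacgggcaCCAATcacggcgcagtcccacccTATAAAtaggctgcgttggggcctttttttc
HIST1H2BB, chr6:26043714-26043833, minus strand: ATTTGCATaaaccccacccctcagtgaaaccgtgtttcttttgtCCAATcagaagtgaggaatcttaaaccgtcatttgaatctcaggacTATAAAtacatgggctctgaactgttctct
HIST1H3C, chr6:26045264-26045383, plus strand: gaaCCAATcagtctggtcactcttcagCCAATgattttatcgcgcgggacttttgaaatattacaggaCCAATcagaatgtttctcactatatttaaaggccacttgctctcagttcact
HIST1H1C, chr6:26056471-26056590, minus strand: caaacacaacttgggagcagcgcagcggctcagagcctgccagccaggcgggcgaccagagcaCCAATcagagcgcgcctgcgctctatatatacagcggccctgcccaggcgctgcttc
HIST1H1E, chr6:26156209-26156328, plus strand: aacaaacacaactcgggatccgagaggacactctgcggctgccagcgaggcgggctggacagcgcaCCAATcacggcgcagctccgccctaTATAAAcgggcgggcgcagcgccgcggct
In the 250 bases upstream of the start, CCAAT on either strand stood in 54 of the 64 members matched to RefSeq (84.4%), against 32.0% of 35116 promoters. It was in all 6 H1, 16 H2A, 17 H2B and 12 H3 promoters matched, and in 3 of 13 H4 promoters. TATAAA stood in 67.2% of the members and 10.7% of all promoters. ATTTGCAT stood in 37.5% of the members, against 1.63% of all promoters. The 24 members with it were 11 of 16 H2A and 13 of 17 H2B genes. In 10 pairs an H2A and an H2B gene start 194 to 248 bases apart on opposite strands. A motif between their starts was counted for both genes, so the motif counts above are not all of separate stretches. These are matches of letters, not shown to be bound, and each motif was counted whether or not it overlapped another.

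The members were among the most abundant transcripts of every library. Levels are given in the normalised signal that the authors deposited, whose measure (FPKM or TPM) is not stated. Of the 69 members, 61 reached 100 in at least 1 library and 4 reached 5 to under 100. Another 3 stayed above 0 but under 5, and HIST1H4G, an H4 gene, was listed at 0 throughout. Together they summed to 41086 (hESC), 51875 (MES), 57051 (HEP) and 55428 (HPC), which is 9.62% (hESC), 14.3% (MES), 18.6% (HEP) and 15.7% (HPC) of each library's total signal. The share was lowest in hESC and highest in HEP. The library totals themselves were 426980 (hESC), 363396 (MES), 306724 (HEP) and 352604 (HPC). Members took 19 (hESC), 32 (MES), 41 (HEP) and 32 (HPC) of the 100 highest places in each library. In bulk samples like these, fewer cells of a type and less RNA per cell cannot be told apart.

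**Figure D1:**
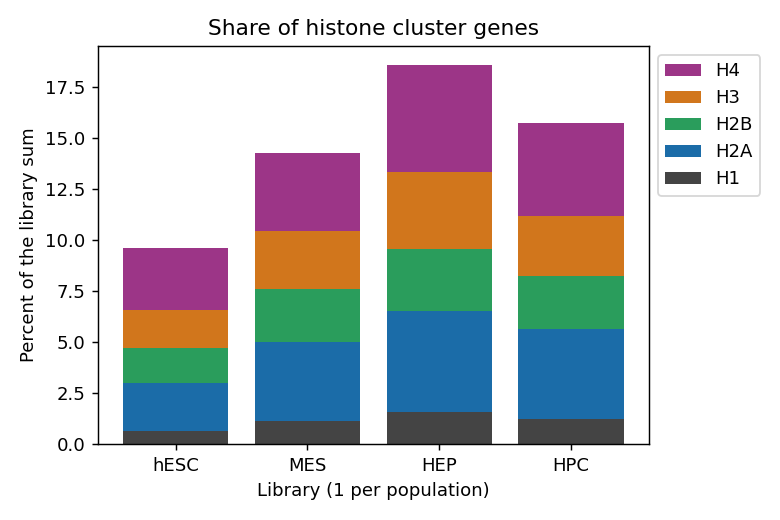
Summed signal of the 69 histone cluster genes as a percentage of each library's total signal, split by class, for hESC, MES, HEP and HPC (1 library each). The share is 9.62% (hESC), 14.3% (MES), 18.6% (HEP) and 15.7% (HPC).

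H4, the class with the largest sum in every library except MES, made up, of the histone signal, 31.5% (hESC), 26.6% (MES), 28.2% (HEP) and 28.7% (HPC). H2A made up 24.2% (hESC), 27.1% (MES), 26.8% (HEP) and 28.0% (HPC), and H2B 18.0% (hESC), 18.0% (MES), 16.4% (HEP) and 16.4% (HPC). H3 stood between 18.9% and 20.2%, and the linker histone H1 between 6.84% in hESC and 8.40% in HEP. By cluster, HIST2 held, of the histone signal, 21.0% (hESC), 22.7% (MES), 24.2% (HEP) and 25.5% (HPC). HIST3 held 1.18% (hESC), 0.824% (MES), 0.344% (HEP) and 0.366% (HPC), and HIST4, a single H4 gene, held 2.53% (hESC), 1.53% (MES), 1.28% (HEP) and 0.820% (HPC). HIST2 therefore had its highest share in HPC, while HIST3 and HIST4 had theirs in hESC.

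Over the 61 members that reached 100, the highest of the 4 values divided by the lowest had a median of 1.56, and 26 members stayed under 1.5. HIST1H4I, an H4 gene, was the steadiest with a ratio of 1.04, and HIST1H1E, a linker histone gene, spanned the most with 2.64. Among the 65 members that reached 5, the library with the highest value was hESC for 7, MES for 14, HEP for 23 and HPC for 21. Of 8109 other genes that reached 5, it was hESC for 45.6%, MES for 21.1%, HEP for 18.3% and HPC for 15.0%. The 10 highest members of a library held, of its histone signal, 31.0% (hESC), 31.3% (MES), 32.4% (HEP) and 35.4% (HPC).

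**Figure D2:**
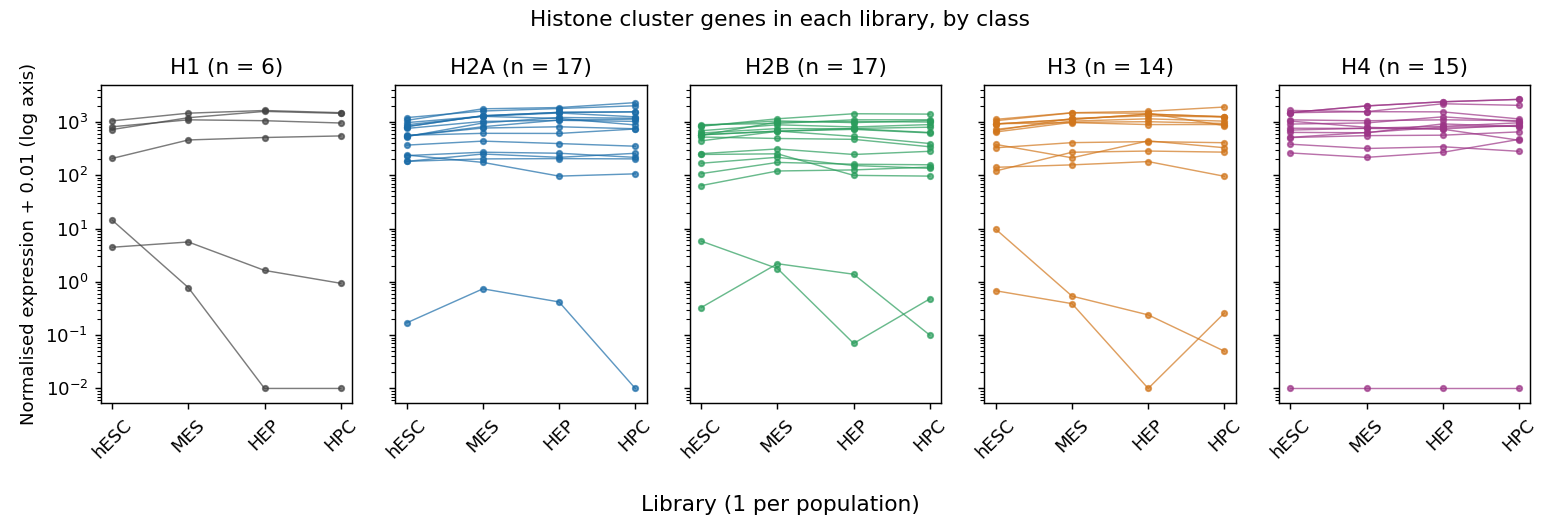
Signal of each of the 69 members in hESC, MES, HEP and HPC on a log axis, with 0.01 added so that values of 0 can be drawn, 1 panel per class and 1 line per gene. Most lines run flat above 100, and among the lines below 100, those of HIST1H1A, HIST1H2BB and HIST1H3C have their highest point in hESC.

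Of the linker histone genes, HIST1H1B was the highest, with 1049.7 (hESC), 1462 (MES), 1642 (HEP) and 1492 (HPC). HIST1H1C stood at 721.7 (hESC), 1202 (MES), 1580.4 (HEP) and 1450.3 (HPC), and HIST1H1D at 812.7 (hESC), 1098 (MES), 1057 (HEP) and 956.5 (HPC). Each of these was lowest in hESC. HIST1H1E had 207 (hESC), 459.7 (MES), 511.2 (HEP) and 547.3 (HPC), also lowest in hESC. HIST1H1A had 14.4 in hESC and 0.77 in MES and was listed at 0 in HEP and HPC. HIST1H1T, the testis linker histone, had 4.45 (hESC), 5.59 (MES), 1.63 (HEP) and 0.93 (HPC). HIST1H1A and HIST1H1T were the only H1 genes that stayed under 100.

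The highest H2A genes were HIST1H2AG, with 1072 (hESC), 1767 (MES), 1865 (HEP) and 2307 (HPC), and HIST1H2AH, with 1208 (hESC), 1605 (MES), 1789 (HEP) and 2014 (HPC). Both were lowest in hESC and highest in HPC. HIST2H2AA3 and HIST2H2AA4, 2 copies with identical coding sequence and the same values, had 818.1 (hESC), 1309 (MES), 1514 (HEP) and 1549 (HPC). HIST2H2AC had 532 (hESC), 957.8 (MES), 1214 (HEP) and 1175 (HPC), and HIST2H2AB, its neighbour in the cluster, had 182.5 (hESC), 202.8 (MES), 205.3 (HEP) and 202.9 (HPC). HIST2H2AC was again lowest in hESC, while HIST2H2AB varied by little over all 4 libraries. HIST3H2A was highest in hESC, with 239.4 (hESC), 174.4 (MES), 96.4 (HEP) and 106.4 (HPC). The testis gene HIST1H2AA stayed at or below 0.73.

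Among H2B genes, HIST1H2BJ had 830.4 (hESC), 1148 (MES), 1427 (HEP) and 1405 (HPC), HIST1H2BD had 889 (hESC), 940.6 (MES), 1097 (HEP) and 1099.9 (HPC), and HIST1H2BO had 857.5 (hESC), 1048 (MES), 973 (HEP) and 1063 (HPC). All 3 were lowest in hESC. HIST2H2BF had 443 (hESC), 667.9 (MES), 756.8 (HEP) and 797.2 (HPC), and HIST2H2BE had 64.1 (hESC), 120.3 (MES), 126 (HEP) and 142.5 (HPC). HIST3H2BB had 245.6 (hESC), 252.7 (MES), 99.6 (HEP) and 96.4 (HPC). The HIST3 gene therefore had its low values in HEP and HPC, and the HIST2 genes theirs in hESC. HIST1H2BB had 5.8 (hESC), 1.77 (MES), 0.06 (HEP) and 0.47 (HPC), and the testis gene HIST1H2BA stayed at or below 2.18.

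The highest H3 gene was HIST1H3H, with 1119.7 (hESC), 1491 (MES), 1587 (HEP) and 1907 (HPC). HIST1H3E had 1056 (hESC), 1482 (MES), 1457 (HEP) and 855.3 (HPC), and HIST2H3A and HIST2H3C, which share their values, had 918.1 (hESC), 1117 (MES), 1406 (HEP) and 1255 (HPC). HIST2H3D stood at 925.9 (hESC), 973.5 (MES), 894.1 (HEP) and 895.7 (HPC), nearly level. HIST1H3C had 9.69 (hESC), 0.53 (MES), 0.23 (HEP) and 0.04 (HPC), and the testis gene HIST3H3 stayed at or below 0.67. HIST1H3A had 379.1 (hESC), 212.6 (MES), 442.2 (HEP) and 328.9 (HPC), lowest in MES.

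For H4, whose genes all code for the same protein in these clusters apart from HIST1H4G, the highest rows by their mean over the 4 libraries were HIST2H4A and HIST2H4B, with HIST1H4K above them in hESC. These copies share their values, at 1501 (hESC), 2001 (MES), 2394 (HEP) and 2654 (HPC). HIST1H4K had 1647 (hESC), 1562 (MES), 2197 (HEP) and 2052 (HPC), and HIST1H4F had 1493 (hESC), 1559.5 (MES), 1548 (HEP) and 1142 (HPC). HIST4H4 had 1037 (hESC), 794.2 (MES), 732.1 (HEP) and 454.5 (HPC), highest in hESC and lowest in HPC. HIST1H4J and HIST1H4K have identical coding sequence but separate values, with K over J at 2.58 (hESC), 2.49 (MES), 2.39 (HEP) and 2.50 (HPC). Near-identical copies can share reads, so such values are uncertain one by one. In all, 8 members had another member with identical coding sequence and 11 had one at 95% identity or above. By GENCODE coordinates 9 members overlap another member in 5 pairs, of which 3 lie on opposite strands and 2 on the same strand. Reads from the shared stretches cannot be told apart, on opposite strands because the use of strand is not stated.

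The first successive comparison sets MES against hESC. Differences are log2 of (value + 1). A gene counted as higher or lower when this difference was 1 or more in size and the larger of its values was 5 or more. In MES, 2 of 69 members were higher and 3 were lower (2.90% and 4.35%), while 3.79% of all genes were higher and 3.70% were lower. Genes under 5 in both libraries could not pass. Among genes at 5 or more in either library, 3.08% of members were higher and 4.62% lower. For all genes on that base the shares were 8.97% and 8.76%, above those of the members. HIST1H1E (1.15) and HIST1H3D (1.16) were higher. HIST1H3D had 270.4 in MES and 120.5 in hESC. HIST1H1A (-3.12), HIST1H3C (-2.80) and HIST1H2BB (-1.30) were lower, and all 3 stood under 20 in hESC. Over the 65 members at 5 or more in either library the median difference was 0.29, and 52 were above 0. Over all 7458 such genes the median was -0.21, and 37.6% were above 0. By class the median was 0.46 for H1, 0.45 for H2A, 0.29 for H2B, 0.32 for H3 and 0.03 for H4.

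**Figure D3:**
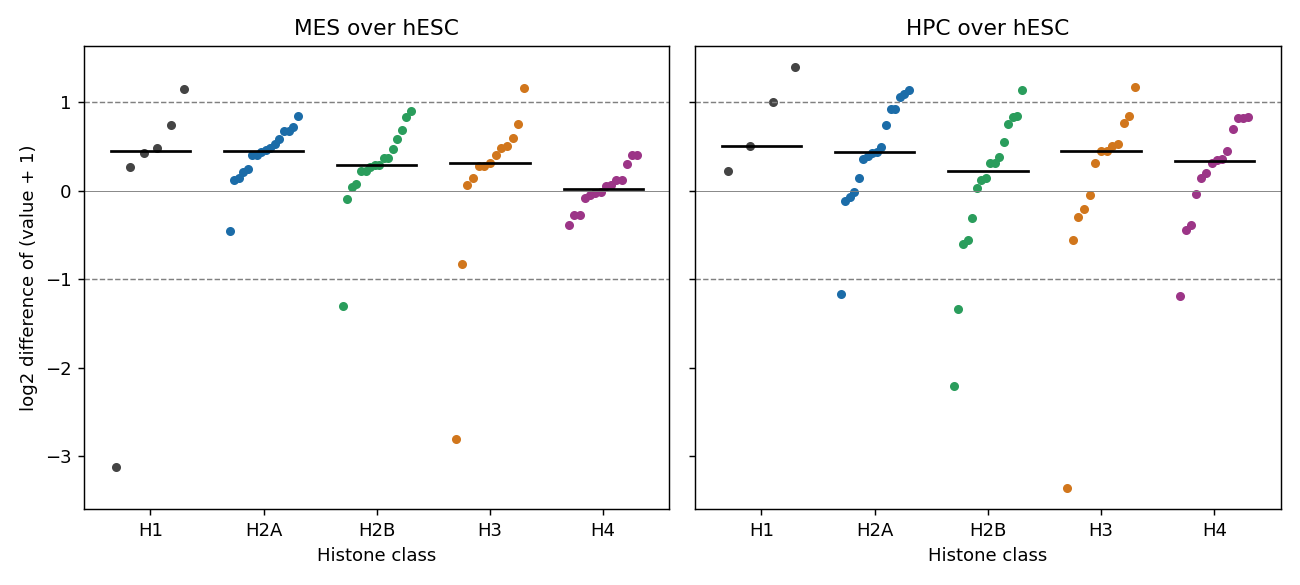
log2 difference of (value + 1) for each member at 5 or more in either library, by class, in MES over hESC and HPC over hESC. Points are genes and bars are class medians. Most points of H1, H2A, H2B and H3 lie above 0 in MES over hESC, where the H4 median is 0.03. Dashed lines mark differences of 1 and -1. HIST1H1A, listed at 0 in HPC, is not drawn in HPC over hESC and counts as the lowest H1 gene in the median there.

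HEP was set against MES next. HIST1H3A was the 1 member higher (1.05), of 69 (1.45%), against 3.32% of all genes, and HIST3H2BB (-1.33) and HIST1H1T (-1.33) were the 2 lower (2.90%), against 13.9%. Once the GC trend was taken out, HIST1H3A and HIST1H1T did not pass, and HIST1H1T did not with a pseudocount of 5 or a minimum of 20 either. Over 62 members the median was 0.08, with 40 of them above 0, and -0.39 over all 7225 genes. In HPC against HEP no member passed in either direction, where 3.01% of all genes were higher and 3.57% were lower. Among members at 5 or more in either library, the largest step up was that of HIST1H4A (470.7 in HPC, 269.6 in HEP) and the largest step down that of HIST1H3I (95.7 in HPC, 180.7 in HEP), both chosen after their values were seen. The median there was -0.05 over 61 members and 0.02 over all 5894 genes.

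Across the whole course, HPC was set against hESC. Of 69 members 7 were higher (10.1%), where 4.67% of all genes were, and 6 were lower (8.70%), where 15.8% of all genes were. Genes under 5 in both libraries could not pass. Among genes at 5 or more in either library, 10.9% of members and 11.1% of all genes were higher. Lower were 9.38% of members and 37.4% of all genes on that base. The 7 higher were the linker genes HIST1H1E (1.40) and HIST1H1C (1.01), the H2A genes HIST2H2AC (1.14), HIST1H2AG (1.10) and HIST1H2AC (1.06), the H2B gene HIST2H2BE (1.14) and the H3 gene HIST1H3D (1.17). HIST1H2AC had 1132 in HPC and 542.2 in hESC. The 6 lower were HIST1H3C (-3.36), HIST1H2BB (-2.21), HIST3H2BB (-1.34), HIST4H4 (-1.19), HIST3H2A (-1.16) and HIST1H1A, which was listed at 0 in HPC against 14.4 in hESC, so no fold is given. The median over 64 members was 0.36, with 45 above 0, and over all 7437 genes it was -0.57, with 31.4% above 0.

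The counts depended on the scaling. In MES over hESC, where the all-gene median was -0.21 as deposited and 0.10 with a common total of the other genes, that scaling gave 8 higher and 2 lower members, HIST1H2BB no longer among the lower. Under it 5.26% of all genes were higher and 1.73% lower. With the GC trend removed, 5 members were higher in HEP over MES, HIST1H3A not among them, and the 2 lower were HIST3H2A and HIST3H2BB. Of all genes 3.66% were then higher and 4.93% lower. The 5 were HIST1H2AC, HIST1H2BF, HIST1H2BH, HIST1H3G and HIST1H4E, the members with the lowest transcript GC content (41.6% to 45.8%). Their coding sequences had 57.6% to 62.8%. The trend was removed by the GC content of whole annotated transcripts, so annotated 3′ UTRs enter it. The all-gene median of HPC over hESC was -0.57 as deposited and -0.02 after median-of-ratios scaling, under which 21 members were higher and 2 lower. With each library at a common total the split was 18 higher and 3 lower. With a common total of the other genes it was 19 and 2. Of all genes, 7.69%, 6.05% and 6.60% were higher under these 3 scalings in turn, and 10%, 12% and 10.7% lower. HIST1H1E, HIST2H2BE, HIST1H2AG and HIST1H2AC were higher under every setting tried. HIST1H1C (0.97), HIST1H3D (0.99) and HIST2H2AC (0.94) fell just short with the GC trend removed and passed under the other settings. In HPC over hESC, HIST3H2A and HIST4H4 did not pass under median-of-ratios scaling or either common total. HIST1H2BB did not pass under those 3 scalings, a pseudocount of 5 or a minimum of 20, and HIST3H2BB did not pass under median-of-ratios scaling or the common total of the other genes. The median of the members stayed above 0 under every setting in MES over hESC (0.29 to 0.61) and HPC over hESC (0.34 to 0.85). After removal of the GC trend it was -0.10 in HEP over MES and 0.08 in HPC over HEP, opposite in sign to the values as deposited.

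GC content of the transcripts moved with these differences. Over 6369 genes, Spearman's rho between GC content and the log2 difference was 0.22 in MES over hESC, 0.71 in HEP over MES, -0.43 in HPC over HEP and 0.53 in HPC over hESC, as a description over genes within 1 pair of libraries. The transcripts of the members had a median GC content of 57.7%, against 51.6% for all these genes. The part of GC content in the members' differences was not tested.

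**Figure D4:**
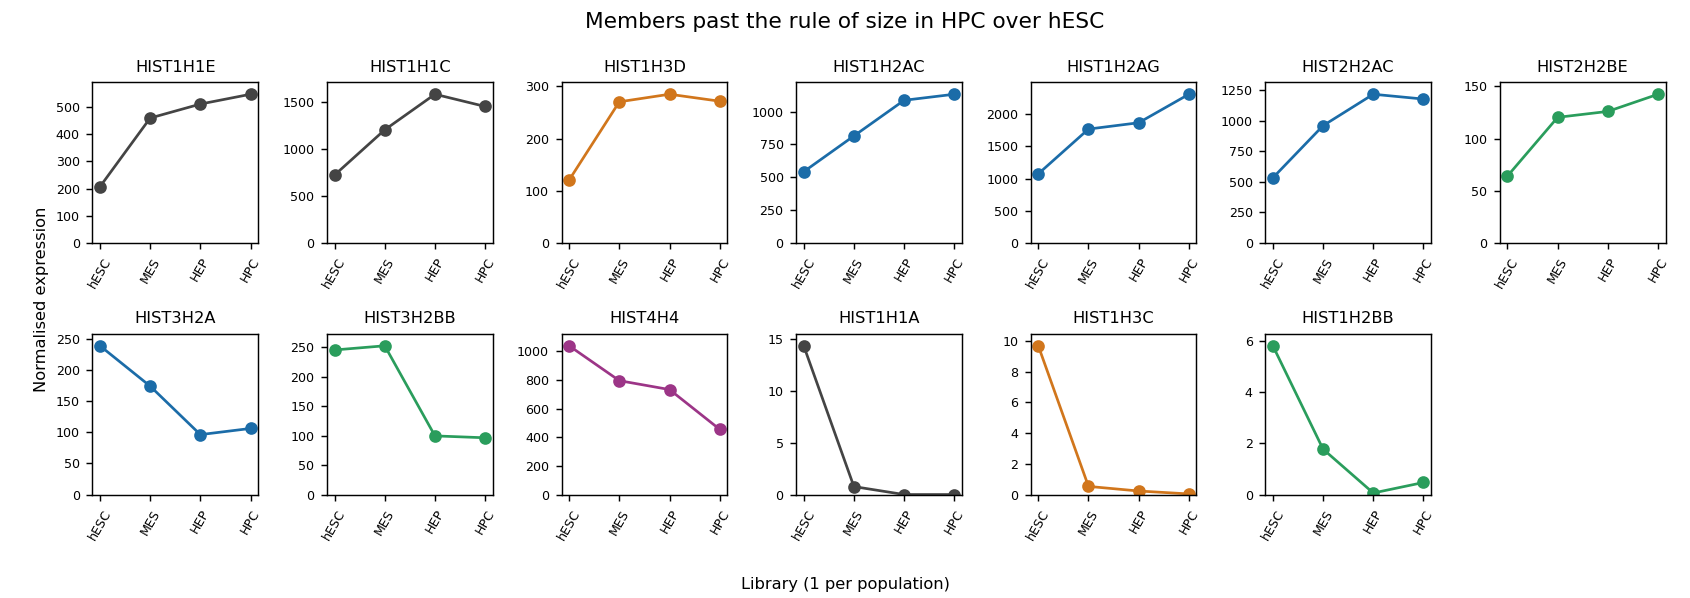
Signal in hESC, MES, HEP and HPC of the 13 members past the rule of size in HPC over hESC, 1 panel per gene and 1 point per library, on linear axes that start at 0. HIST1H1E has 547.3 in HPC and 207 in hESC, and HIST4H4 454.5 in HPC and 1037 in hESC.

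Members that lie side by side were looked at in pairs. On chromosome 6, HIST1H2BB and HIST1H3C, both lower in MES than in hESC, are neighbouring members, and the next member along is HIST1H1C, which was higher in HPC than in hESC. An H2A and an H2B gene transcribed away from each other, with starts at most 500 bases apart, made 10 pairs with starts 194 to 248 bases apart, and 9 had both genes at 5 or more. Their log2 differences had the same sign in 8 of 9 pairs in MES over hESC, 7 in HEP over MES, 3 in HPC over HEP and all 9 in HPC over hESC. Most H2A and H2B genes at 5 or more lay above 0 in MES over hESC in any case, 15 of 16 and 14 of 16, so a shared sign there is not particular to partners. In HPC over hESC 12 of 16 and 11 of 16 lay above 0, and HIST1H2AJ shared its partner's sign at only -0.01. Gaps between genes that are not partners were not measured. The gap between partners was at most 0.49, with a median of 0.18 in MES over hESC. The promoter printed above for HIST3H2A and HIST3H2BB lies between a pair that was lower on both sides in HPC over hESC (-1.16 and -1.34). That for HIST2H2BE and HIST2H2AC lies between a pair that was higher on both sides (1.14 and 1.14). Of these genes only HIST2H2BE passed under every setting tried. HIST2H2BE stood at 142.5 in HPC and 64.1 in hESC, and its partner HIST2H2AC at 1175 in HPC and 532 in hESC.

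**Figure D5:**
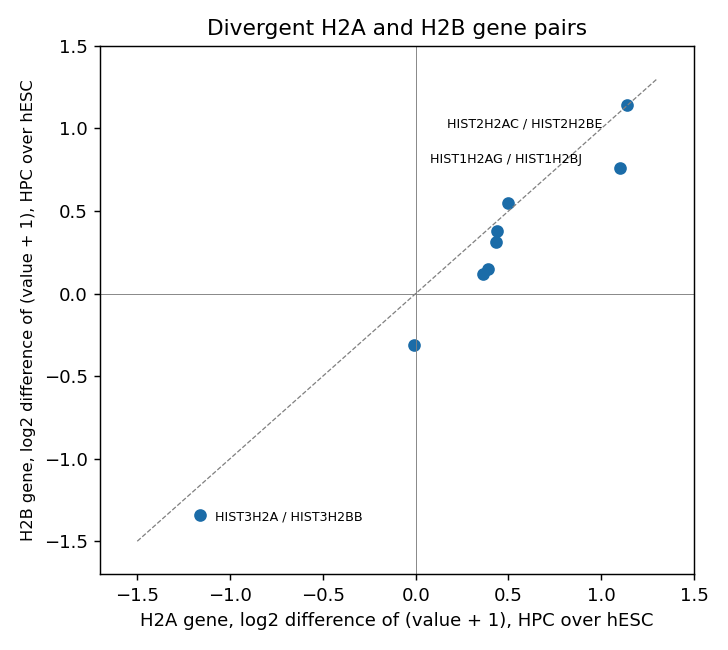
log2 difference of (value + 1), HPC over hESC, of the H2A gene (x axis) against that of its H2B partner (y axis) for the 9 divergent pairs at 5 or more, with the line of equal values dashed. The HIST3 pair lies lowest, the HIST2 pair highest, and partners differ by at most 0.34.

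Some histone genes are known to give polyadenylated mRNA from a site further downstream as well, so members with a long annotated 3′ UTR were set beside the rest. The 24 members with 200 or more annotated bases had a median difference in HPC over hESC of 0.45, against 0.36 for the other 37 that reached 100. In MES over hESC the medians were 0.30 for the long ones and 0.37 for the others.

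Genes known to make, bind or use histone mRNA were listed beside the members. SLBP had 17.4 (hESC), 15.5 (MES), 9.64 (HEP) and 15.6 (HPC), and NPAT 4.48 (hESC), 3.84 (MES), 0.25 (HEP) and 0.75 (HPC). Of 30 genes of histone mRNA processing, 12 were lower and none higher in HPC than in hESC, with a median of -1.05 over genes at 1 or more in any library. Of all genes at 5 or more in either library, 37.4% were lower in this comparison and the median was -0.57, so the list counts here stand on a high background. The list counts are over all genes listed, including some under 5 in every library that could not pass. Their shares are therefore not on the same base as that background. The 3 with the largest difference were the cleavage factors CPSF3 (12.4 in HPC, 62.9 in hESC) and CPSF2 (6.1 in HPC, 28.9 in hESC) and the small nuclear ribonucleoprotein gene SNRPE (15.2 in HPC, 64.9 in hESC). Of 29 histone chaperones, 14 were lower and none higher, led by NPM1 (295.8 in HPC, 2109 in hESC), ANP32E (2.23 in HPC, 21.7 in hESC) and the acetyltransferase HAT1 (3.71 in HPC, 29.1 in hESC). Of 50 genes of DNA replication and S phase, 24 were lower and none higher, with a median of -0.97, led by the kinase CDC7 (1.48 in HPC, 21.8 in hESC), the clamp loader subunit RFC4 (7.15 in HPC, 45.4 in hESC) and DBF4, the activator of CDC7 (1.91 in HPC, 15.4 in hESC). Of 20 G2 and mitosis genes, 17 were lower and none higher, with a median of -1.60. In the earlier steps the counts differed by list. In MES over hESC none of the mRNA processing genes passed, 3 chaperones and 12 replication genes were lower, and 1 mitosis gene, MKI67, was higher. There 8.97% of all genes at 5 or more were higher and 8.76% lower. With the GC trend removed, 0 chaperones and 6 replication genes were lower in MES over hESC, and with a common total of the other genes 0 and 3. Under these settings 2.18% and 1.73% of all genes were lower. In HEP over MES, 8 mRNA processing, 12 chaperone, 14 replication and 12 mitosis genes were lower and none higher, where 33.9% of all genes at 5 or more were lower. After removal of the GC trend 1 mRNA processing gene, 6 chaperones, 1 replication gene and 6 mitosis genes were lower, and 1 mRNA processing gene was higher. Then 4.93% of all genes were lower and 3.66% higher. In HPC over HEP, 2 chaperones and 3 replication genes were higher, and 1 replication gene and 3 mitosis genes were lower. There 8.99% of all genes at 5 or more were higher and 10.7% lower. With the GC trend removed, 1 replication gene was higher, where 2.64% of all genes were. The counts in HPC over hESC moved with the processing. With the GC trend removed, 2 of the mRNA processing genes, 7 of the chaperones, 7 of the replication genes and 8 of the mitosis genes were lower in HPC. Their medians were -0.25, -0.43, -0.39 and -0.93. Of all genes 6.56% were then lower. Of 8 genes of cell cycle exit, 3 were higher and none lower in HPC than in hESC. Of all genes at 5 or more, 11.1% were higher there. The 3 were CDKN1A (77.5 in HPC, 4.73 in hESC), CDKN1C (74.3 in HPC, 2.35 in hESC) and CDKN2D (6.51 in HPC, 1.02 in hESC). CDKN1B had 6.46 in HPC and 8.33 in hESC, and RB1 2.11 in HPC and 2.59 in hESC. The part of the cell cycle in the members' levels was not tested.

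Of 11 detected replication-independent histone genes, 2 were higher and 3 lower in HPC than in hESC, or 4 and 1 after median-of-ratios scaling. H1F0, the linker histone of slowly dividing cells, had 5.13 (hESC), 22.1 (MES), 15.9 (HEP) and 25.4 (HPC), and H2AFY2, a macroH2A, had 5.44 (hESC), 70.4 (MES), 41.1 (HEP) and 25.6 (HPC). Both were higher in HPC than in hESC (2.10 and 2.05). H2AFZ, which codes for H2A.Z, had 836.2 (hESC), 579.6 (MES), 228.4 (HEP) and 241.1 (HPC), and H3F3B, for H3.3, had 227.2 (hESC), 182.4 (MES), 106.5 (HEP) and 87.8 (HPC). Both were lower in HPC than in hESC (-1.79 and -1.36), as was the centromeric CENPA (-1.04). H3F3A, the other H3.3 gene, had 382.8 (hESC), 187.7 (MES), 82.3 (HEP) and 197.8 (HPC). It was higher in HPC than in HEP (1.25) and did not pass in HPC over hESC (-0.95).

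The labels were checked on marker genes. APLNR stood at 344.4 in MES and 0.57 in hESC, but also at 249.75 in HEP. CD34 stood at 43.6 in HEP and 1.35 in MES, and SPN, the gene of CD43, at 24.4 in HPC and 0.97 in HEP. PECAM1, the gene of CD31, reached only 1.83 in HEP and 7.49 in HPC. POU5F1 stood at 1582 (hESC), 567.6 (MES), 112 (HEP) and 15.4 (HPC). The mesoderm genes MIXL1, MESP1 and EOMES had 57.15, 65.9 and 56.54 in MES, and T only 3.71. In HEP the endothelium genes CDH5, KDR, TEK and PLVAP had 73.54, 210.39, 42.58 and 139.52, and EMCN only 0.02. Of other cell types, the endoderm gene SOX17 had 25.1 in MES and 26.9 in HEP, and the other endoderm gene, FOXA2, at most 0.65. The smooth muscle gene TAGLN had 94.8 (hESC), 560.9 (MES), 233.3 (HEP) and 12.4 (HPC), and ACTA2 had 0.72 (hESC), 1.68 (MES), 6.81 (HEP) and 19.2 (HPC), so the genes of this pair ran opposite ways from MES on. The trophoblast genes GATA3 and KRT7 stayed at or below 4.06, and the neural genes PAX6 and SOX1 at most 0.03. Of the blood genes, HBE1 stood at 442.1, ITGA2B at 283.4 and GATA1 at 41.5 in HPC, and TAL1 at 43.2 in HPC and 50.4 in HEP. PTPRC, the pan-leukocyte gene, reached at most 0.04 in any library. The part of the cells' makeup in the members' differences was not tested.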

How the data were processed

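RNA from 4 populations, 1 library each, was compared. The authors deposited, for each library, a table of normalised signal per gene to 2 decimals. The tools BWA, Bowtie and RSEM and the build hg19 are named, per the submitters' processing notes. Tool versions, annotation, measure (FPKM or TPM), strand and poly(A) selection are not stated there or in the labels. Values were compared as deposited, without rescaling, although sums differ between libraries. Rescaled values were run as alternatives, and the counts moved with them. Depth is unknown, so no counting interval is given.

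Each table had 17634 rows. In 28 the symbol stood as a date, and 4 of them with shared names were left out. Differences are log2 of (value + 1), counted from a size of 1 where the larger value was at least 5. This scale understates changes of low genes. With 1 library per group there was no test. Members and lists were chosen with earlier results of these data known. Named members are the 3 highest of each class, all H1 genes, the HIST2, HIST3 and HIST4 genes at 5 or more, the testis genes and the 3 largest differences past the rule each way; list genes are named mainly for HPC over hESC. Any other gene was picked with its values known.

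GC content came from GENCODE 29 (17444 genes matched, 98.9%), stem-loops from its transcripts, and promoters, in GRCh38.p14, from RefSeq. The GC trend was the median over 50 bins of GC content, averaged over 5. The procedure was tested on simulated data. Alternatives were other pseudocounts, minimums and scalings, the GC trend removed, and shared copies counted once. Python 3.11.15, numpy 2.4.6, pandas 2.3.3, Biopython 1.88 and matplotlib 3.10.9 were used.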

Additional observations from a re-analysis of the deposited data

How the results depend on the processing

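With 1 library per group, no replicate could be left out. No paired analysis was possible because each group has 1 library. Depth is unknown, so counting error is too. The counts of members past the rule of size moved by more than 1.5 times as follows, with the share of all genes under the same setting in brackets. With the GC trend removed, 5 were higher in HEP over MES (3.66%), 1 in HPC over HEP (2.64%) and 13 in HPC over hESC (6.37%). With each library at a common total, 5 were higher in MES over hESC (4.80%) and 18 in HPC over hESC (6.05%). Under that setting 1 was lower in HPC over HEP (5.01%) and 3 in HPC over hESC (12%). With a common total of the other genes, 8 were higher in MES over hESC (5.26%) and 19 in HPC over hESC (6.60%). There 2 were lower in each of HPC over HEP (5.50%) and HPC over hESC (10.7%). With median-of-ratios scaling, 21 were higher (7.69%) and 2 lower (10%) in HPC over hESC. With a minimum of 20, the lower members numbered 0 in MES over hESC (1.63%), 1 in HEP over MES (4.71%) and 3 in HPC over hESC (6.39%), since fewer genes could pass. With a pseudocount of 5, 1 was lower in HEP over MES (8.39%), and with no minimum, 1 was lower in HPC over HEP (5.04%). The pseudocount of 0.1 moved none of the 8 counts. The share of total signal was 11.2% (hESC), 15.5% (MES), 17.7% (HEP) and 15.2% (HPC) with the GC trend removed, and 8.93%, 13.2%, 17.2% and 14.4% with rows of the same values counted once, so hESC stayed lowest and HEP highest. Apart from that of the minimum, the cause was not tested.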
